A study of Homo sapiens with 16 samples.

Results

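The genes described here are ZNF zinc finger genes that lie outside chromosome 19. They were chosen by name and position alone: protein-coding rows named ZNF followed by a number, with at most 1 letter after it, on any chromosome other than 19, X and Y. The rule gave 218 of the 16324 genes listed in the authors' deposited tables. Of 251 protein-coding genes with such a name and position in the RefSeq annotation, 216 had a row. The other 2 of the 218, ZNF705E and ZNF720, matched no such RefSeq symbol. The values come from a RIP-seq study, in which RNA that comes down with a tagged protein is sequenced beside the input RNA of the same lysate. The series has 16 libraries in 6 groups from cells labelled UM-SCC-1, a head and neck squamous carcinoma line. There are 3 pull-down and 3 input libraries for Strep-ALKBH5, 2 and 2 for Strep-RBM33, and 3 and 3 for the empty tag vector Strep-Vec-1. All cells were infected with lentivirus carrying the tagged construct and selected with puromycin, so both baits were expressed from a transgene in addition to the cells' own protein. ALKBH5 removes the methyl mark m6A from RNA, and RBM33 is an RNA-binding protein studied here beside it.

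The files used were 2 result tables, 1 a bait, that hold the authors' own comparisons and no values per library. Library depth is thus not known, and values carry neither a standard deviation nor an n. The label siCtrl stands on both tables and is taken as a control siRNA, although no library title has it. The tables state neither the groups set against each other nor the direction of the ratio, and whether the vector libraries entered is not stated. Fold changes are therefore called positive or negative as deposited, with no statement that a positive value means more RNA in the pull-down. Since no label ties a replicate to a culture of its own, the spread behind the authors' p-values may be technical. Whether the tables share libraries is not stated, so values of the 2 tables are set side by side and their difference was not tested. Of 8 squamous or basal epithelial markers looked up after seeing the data (KRT5, KRT14, KRT6A, KRT17, TP63, DSG3, S100A2 and SFN), none had a row in the tables used here. Among simple epithelial markers, the keratins KRT8 and KRT18 had average log2 CPM of 6.31 and 5.50 and the cadherin CDH1 0.60 in the authors' deposited ALKBH5 table, and 6.43, 5.39 and 0.33 in the RBM33 one. The neurofilament genes NEFL and NEFM had average log2 CPM of 8.10 and 7.72 in the authors' deposited ALKBH5 table, and 7.42 and 7.18 in the RBM33 one. The cells are therefore named only by their label.

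Zinc finger proteins of the classical cysteine and histidine type bind DNA, and some bind RNA, through repeated small folds that each hold a zinc ion. Many human members also carry a KRAB domain, which recruits the corepressor TRIM28 and the methyltransferase SETDB1 to silence transposable elements and imprinted loci. Their genes arose by repeated duplication and often lie in clusters, the largest of them on chromosome 19. In a typical KRAB gene the whole finger array is encoded in a single long last exon. Other proteins named ZNF have only a few fingers and work in ribosome assembly, splicing or translation control.

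In the comparison for ALKBH5, positive values outnumbered negative ones among these genes. At an adjusted p under 0.05, 103 of the 218 ZNF genes were positive, 18 negative and 97 not called in the authors' deposited ALKBH5 table. Of all listed genes 59.6%, and of protein-coding genes 60.8%, were called with either sign in the authors' deposited ALKBH5 table. Positive calls made up 47.2% of the ZNF genes, against 30.5% of all listed genes and 27.5% of protein-coding genes in the same authors' deposited table. Negative calls made up 8.26% of the ZNF genes, against 29.1% of all listed genes and 33.3% of protein-coding genes in the authors' deposited table. Their median log2 fold change was 0.51, with quartiles of -0.04 and 1.15, against a median of 0.03 over all listed genes in the authors' deposited table. For 71 of the 218 the called value was at least 1 log2 unit, and for 14 at least 2, in the authors' deposited ALKBH5 table. How many of all listed genes reached these sizes was not counted.

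For RBM33 the split ran the same way. The 218 genes had 85 positive, 12 negative and 121 uncalled values in the authors' deposited RBM33 table, in which 51.1% of all listed genes and 52.7% of protein-coding genes were called with either sign. Positive calls were 39.0% of them, against 24% of all listed genes and 21.5% of protein-coding genes in the authors' deposited table. The negative share was 5.5%, against 27% of all listed genes and 31.2% of protein-coding genes in the authors' deposited table. Their median was 0.44 (quartiles 0.01 and 1.03), against -0.02 over all listed genes in the authors' deposited RBM33 table. Called values of at least 1 log2 unit numbered 57 and those of at least 2 numbered 6 in the authors' deposited RBM33 table, again without a count over all listed genes. No ZNF gene of the 218 was called with opposite signs in the authors' deposited tables, and 89 were called in neither. The matching shares of all listed genes were not counted, so neither number is read as particular to the ZNF genes. These are descriptions of a list chosen with earlier results of the data known, and no test of the list was made.

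**Figure D1:**
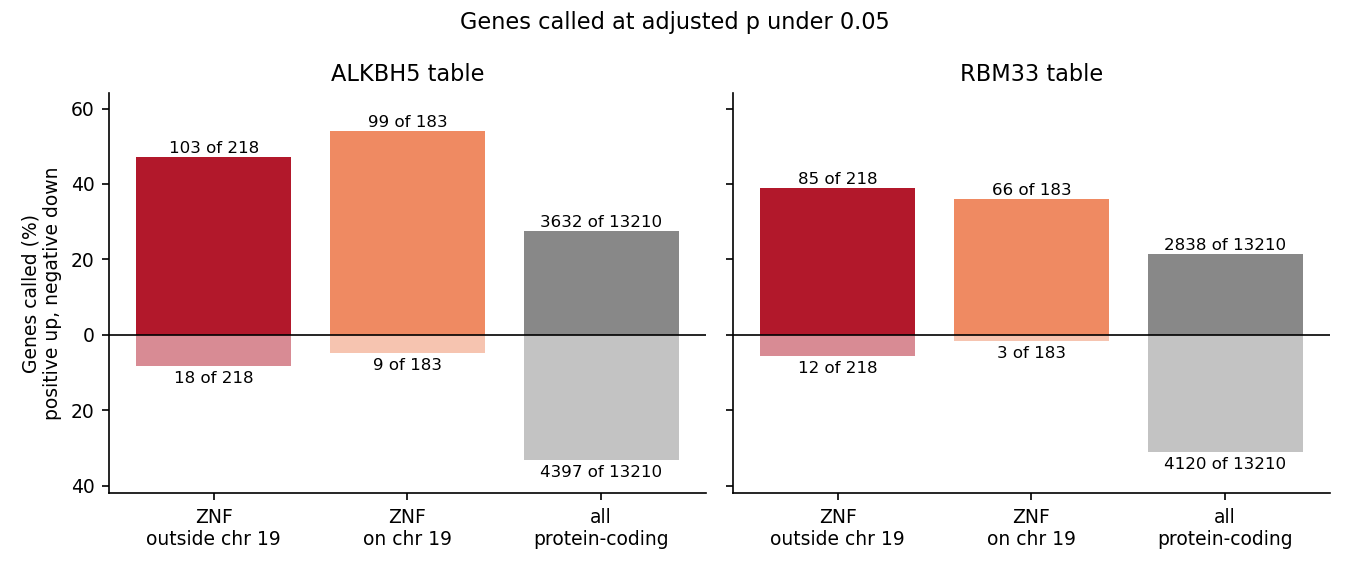
Share of genes called at an adjusted p under 0.05 in each of the authors' deposited tables (vertical axis, percent; positive calls upward in full colour, negative calls downward in pale colour) for ZNF genes outside chromosome 19, X and Y, ZNF genes on chromosome 19 and all protein-coding genes. The ZNF genes outside chromosome 19 had 103 positive and 18 negative calls for ALKBH5 and 85 and 12 for RBM33, whereas among all protein-coding genes negative calls outnumbered positive ones.

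The 183 ZNF genes of chromosome 19 are the genes most like them. In the authors' deposited ALKBH5 table, 47.2% of the 218 were positive and 8.26% negative (median 0.51), against 54.1% and 4.92% of those on chromosome 19 (median 0.77). For RBM33 the shares were 39.0% and 5.5% (median 0.44), against 36.1% and 1.64% (median 0.66) in the authors' deposited table. The genes outside chromosome 19 were more abundant, with a median average log2 CPM of 4.15 against 3.32 in the authors' deposited ALKBH5 table. The difference between these groups of genes was not tested.

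The most positive ZNF genes are given first, with the class of the encoded protein where it is known. ZNF407 (ENSG00000215421, chromosome 18, 74597870 to 75065671, plus strand, hg38), a zinc finger protein without a KRAB domain, stood at 2.79 for ALKBH5 (adjusted p = 4.27e-07) and 2.22 for RBM33 (adjusted p = 0.000115) in the authors' deposited tables. LINC00909 overlaps ZNF407 on the opposite strand. ZNF26 (ENSG00000198393, chromosome 12, 132986365 to 133032952), a KRAB protein, had 2.50 for ALKBH5 (adjusted p = 1.11e-07) and 1.47 for RBM33, per the authors' deposited tables. ZNF789 (ENSG00000198556, chromosome 7, 99472890 to 99503650) had 2.36 and 2.35 (adjusted p = 4.51e-06 and 6.83e-05) in the authors' deposited tables for ALKBH5 and RBM33. It was the most positive called ZNF gene in the RBM33 comparison.

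ZNF514, ZNF519, ZNF891 and ZNF717 are KRAB zinc finger genes. ZNF514 stood at 2.33 and 1.56, and ZNF519 at 2.25 and 1.89, in the authors' deposited tables for ALKBH5 and RBM33. ZNF891 had 2.24 and 1.49 and ZNF717 had 2.22 and 1.81 in the same order in the authors' deposited tables. Each of the 4 was called positive for both baits. ZNF276 (chromosome 16, 89720400 to 89740925) had 2.22 (adjusted p = 5.24e-08) and 1.63 in the authors' deposited tables for ALKBH5 and RBM33. It overlaps FANCA and VPS9D1 on the opposite strand, and ZNF514 overlaps MRPS5 on its own strand, and reads from these neighbours may be counted in the values.

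A pair of the largest ALKBH5 values were not called for RBM33. ZNF705E, on chromosome 11, had the largest value of all, 3.01 (adjusted p = 0.00275), in the authors' deposited ALKBH5 table and 0.07 (adjusted p = 0.944) in the RBM33 one. Its average log2 CPM was 0.75 and 0.51 in the authors' deposited tables, among the lowest of the ZNF genes. It belongs to a family of near-identical copies, so its reads could be split or misplaced. ZNF705E also overlaps ALG1L9P on the same strand, whose reads may be counted in its values. ZNF117 stood at 2.35 (adjusted p = 6.08e-05) and 0.99 (adjusted p = 0.0576) in the authors' deposited tables for ALKBH5 and RBM33. It overlaps ERV3-1, an endogenous retroviral gene, on the same strand, and their reads cannot be told apart here.

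On the RBM33 side, ZNF862 had 2.23 (adjusted p = 0.000323) for RBM33 and 1.42 for ALKBH5, per the authors' deposited tables. ZNF646 had 2.10 for RBM33 (adjusted p = 3.8e-05), with 1.52 for ALKBH5, per the authors' deposited tables. ZNF169, a KRAB gene, stood at 2.00 for RBM33 and 1.85 for ALKBH5, per the authors' deposited tables. ZNF687, whose protein works in a chromatin complex with ZNF592 and ZMYND8, had 1.84 for RBM33 and 1.28 for ALKBH5, per the authors' deposited tables. Its partner ZNF592 was not called, at 0.22 and 0.02 in the authors' deposited tables for RBM33 and ALKBH5.

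**Figure D2:**
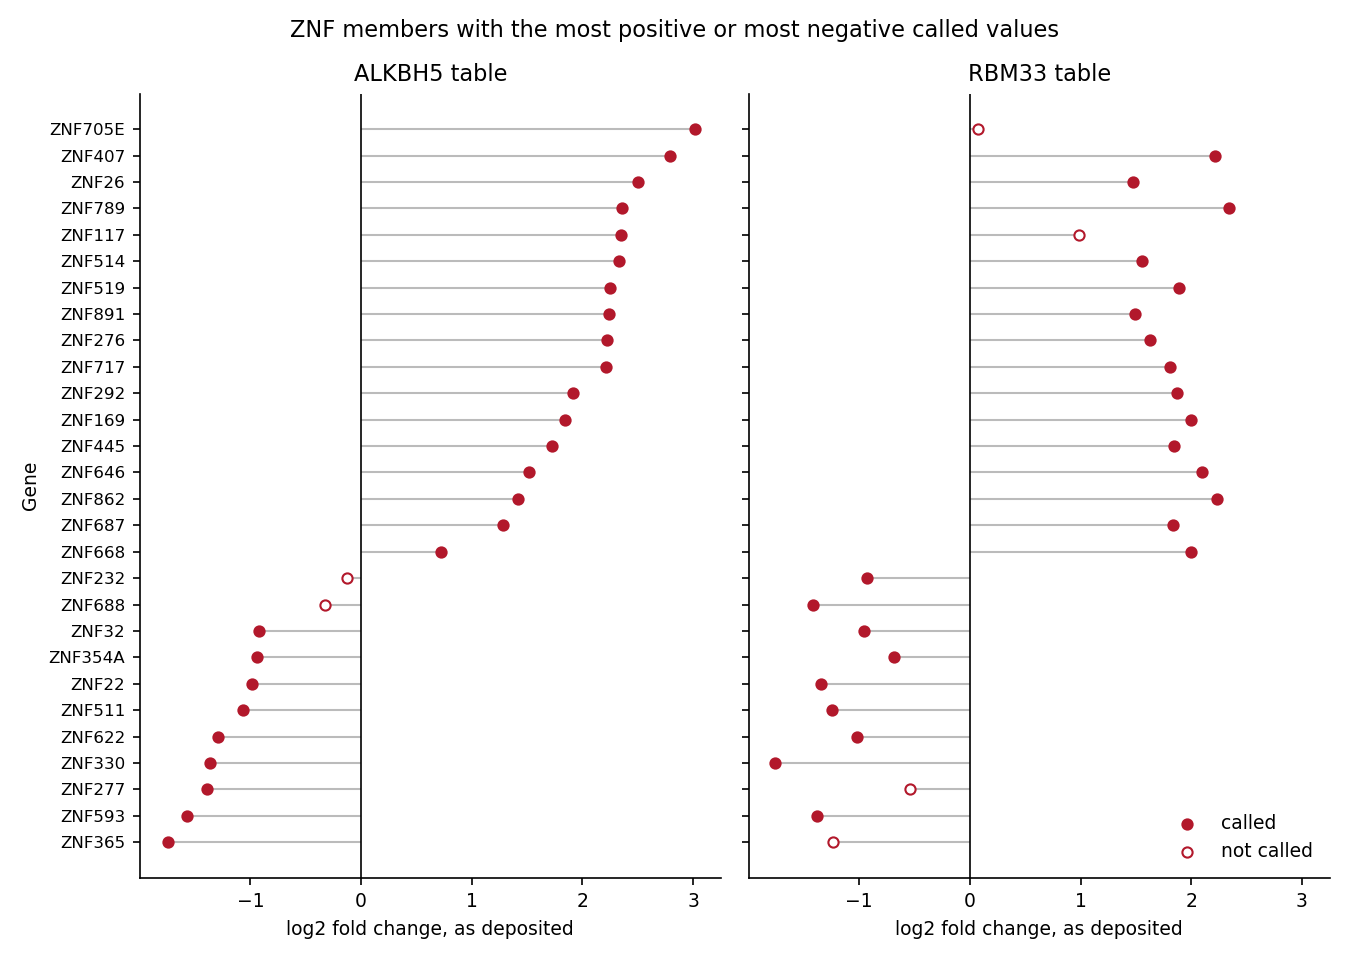
Log2 fold change as deposited (horizontal axis) of the 28 ZNF genes with the 10 most positive or 8 most negative called values of either table, ordered by the ALKBH5 value, with filled points for genes called at an adjusted p under 0.05 and open points for those not called. ZNF705E stands at 3.01 in the ALKBH5 panel and 0.07 in the RBM33 panel, and ZNF330 at -1.37 and -1.76.

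The negative ZNF genes included several whose proteins are known from ribosome assembly or the nucleolus. ZNF593 (ENSG00000142684, chromosome 1, 26169908 to 26170873), whose yeast counterpart acts on the large ribosomal subunit on its way out of the nucleus, had -1.57 for ALKBH5 (adjusted p = 0.000248) and -1.38 for RBM33 (adjusted p = 0.00013) in the authors' deposited tables. ZNF622 (ENSG00000173545, chromosome 5, 16451519 to 16465800), whose yeast counterpart acts in late maturation of the same subunit, had -1.29 (adjusted p = 1.71e-05) and -1.02 (adjusted p = 0.000431) in the authors' deposited tables for ALKBH5 and RBM33. ZNF330 (ENSG00000109445, chromosome 4, 141220887 to 141234697), a nucleolar protein, stood at -1.37 (adjusted p = 9.88e-07) and -1.76 (adjusted p = 7.68e-06), the most negative value for RBM33, per the authors' deposited tables. All of these genes are short, with listed lengths of 732, 1707 and 2536 bases.

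ZNF277, which binds a protein of the small ribosomal subunit, had -1.39 (adjusted p = 2.63e-05) for ALKBH5, with -0.54 (adjusted p = 0.0632) for RBM33, per the authors' deposited tables. ZNF365, a protein of genome stability, had the most negative ALKBH5 value, -1.74 (adjusted p = 0.0227), and -1.24 (adjusted p = 0.128) for RBM33, at an average log2 CPM of 0.91 and 1.13 in the authors' deposited tables. ZNF511 was negative for both baits, at -1.06 and -1.25, and ZNF22 likewise, at -0.99 and -1.35, in the authors' deposited tables for ALKBH5 and RBM33. ZNF511 shares its strand and span with the readthrough gene ZNF511-PRAP1. ZNF32 stood at -0.92 and -0.96 and ZNF354A at -0.94 and -0.69 in the authors' deposited tables, all called negative.

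A few negative genes of the RBM33 comparison missed the threshold for ALKBH5. ZNF688 had -1.41 for RBM33 (adjusted p = 0.00617), with -0.32 for ALKBH5 (adjusted p = 0.261) in the authors' deposited tables. ZNF232 had -0.93 for RBM33 (adjusted p = 0.005), with -0.13 for ALKBH5 (adjusted p = 0.55) in the authors' deposited tables. ZNF688 is overlapped on the opposite strand by AC002310.2, and ZNF232 by ZNF232-AS1.

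ZNF genes with a known molecular role were looked up from a fixed list of 40 genes, of which 39 had a row. ZNF750, a factor of epidermal differentiation, was not analysed here. Of 28 DNA-binding factors, 16 were positive and 2 negative for ALKBH5 (median 0.53) and 13 positive and 0 negative for RBM33 (median 0.45) in the authors' deposited tables. Their positive shares of 57.1% and 46.4% stood beside 47.2% and 39.0% of the 218 in the authors' deposited tables for ALKBH5 and RBM33. Of all listed genes 30.5% and 24% were positive, in the same order, in the authors' deposited tables. ZNF827, which brings a chromatin remodeller to telomeres, had 1.98 and 1.69, and ZNF292, a large factor linked to brain development, 1.92 and 1.87 in the authors' deposited tables for ALKBH5 and RBM33. ZNF445, a KRAB protein that keeps imprinted regions methylated, had 1.73 (adjusted p = 4.18e-07) and 1.85 (adjusted p = 6.53e-06), and the breast cancer oncogene ZNF217 had 1.66 and 1.01 in the authors' deposited tables. ZNF746, a substrate of the ubiquitin ligase parkin, stood at 0.99 and 0.90 in the authors' deposited tables for ALKBH5 and RBM33.

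ZNF143, an activator bound at many promoters, was negative for ALKBH5 at -0.56 (adjusted p = 0.0306) and stood at -0.43 (adjusted p = 0.196) for RBM33, per the authors' deposited tables. Its paralogue ZNF76 was positive for ALKBH5 at 0.77 (adjusted p = 0.000297) and stood at 0.20 (adjusted p = 0.567) for RBM33, per the authors' deposited tables. ZNF24 was the other negative DNA-binding factor for ALKBH5, at -0.40 (adjusted p = 0.0115), with -0.20 (adjusted p = 0.285) for RBM33, per the authors' deposited tables.

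The 9 proteins of RNA, ribosome and translation biology differed in sign. For each bait 1 was positive and 3 negative, with medians of -0.04 for ALKBH5 and -0.24 for RBM33, per the authors' deposited tables. The positive gene was ZNF638, which silences unintegrated retroviral DNA, at 1.06 (adjusted p = 8.19e-06) and 0.94 in the authors' deposited tables for ALKBH5 and RBM33. The negative ones were ZNF593, ZNF622 and ZNF330. Their share of 33.3% for each bait was near the 33.3% and 31.2% of all protein-coding genes called negative in the authors' deposited tables for ALKBH5 and RBM33. Of the 218 ZNF genes 8.26% and 5.5% were negative, in the same order, in the authors' deposited tables. The positive share of the list was 11.1% for each bait, against 47.2% and 39.0% of the 218, in the authors' deposited tables. Among protein-coding genes 27.5% and 21.5% were positive in the authors' deposited tables. ZNF598, the ubiquitin ligase that marks collided ribosomes, had -0.04 (adjusted p = 0.788) and -0.24 (adjusted p = 0.207) and was not called, though its average log2 CPM was the highest of the 218 at 7.89 in the authors' deposited ALKBH5 table. ZNF326, a splicing-linked subunit of an RNA polymerase complex, stood at 0.04 and -0.03, and the RNA-binding protein ZNF106 at 0.16 and 0.31, none of them called, in the authors' deposited tables for ALKBH5 and RBM33. The spindle assembly factor ZNF207 had 1.26 and 1.15, and ZNF451, a SUMO ligase, had 1.13 and 0.84, all called positive in the authors' deposited tables.

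The KRAB partner genes outside the family had calls of both signs. Of 17 listed genes among 18 looked up, 7 were positive and 7 negative for ALKBH5 (median 0.03), and 5 positive and 6 negative for RBM33 (median 0.25) in the authors' deposited tables. Positive and negative shares were 41.2% each for ALKBH5, in the authors' deposited table, against 30.5% and 29.1% of all listed genes. They were 29.4% and 35.3% for RBM33, against 24% and 27%, in the authors' deposited table. TRIM28 was not called, at 0.03 (adjusted p = 0.848) and 0.07 (adjusted p = 0.722), whereas SETDB1 had 1.13 and 1.06, both called positive, in the authors' deposited tables for ALKBH5 and RBM33. MORC2, an ATPase of heterochromatin silencing, was positive at 1.81 and 1.73 in the authors' deposited tables. The heterochromatin proteins CBX3 (-1.81 and -1.92) and CBX1 (-1.74 and -1.64) and the deacetylase HDAC2 (-1.97 and -1.72) were negative in the authors' deposited tables for ALKBH5 and RBM33.

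Values went with the gene length listed in the tables, whose definition they do not give. Among the 218 ZNF genes the Spearman rho between listed length and log2 fold change was 0.43 for ALKBH5 and 0.45 for RBM33, per the authors' deposited tables, given as a description across genes measured in the same libraries. Over all 13210 protein-coding genes it was 0.41 and 0.45 in the authors' deposited tables. For the ZNF genes of chromosome 19 it was lower, at 0.20 and 0.22, in the authors' deposited tables. With average log2 CPM the rho was 0.00 and 0.01 for the ZNF genes, against -0.27 and -0.27 for protein-coding genes in the authors' deposited tables. The ZNF genes had a median listed length of 5570 bases, against 5228 for all protein-coding genes.

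Protein-coding genes were then split by listed length into 5 classes of equal size, and the ZNF genes of each class were set beside all its protein-coding genes. In the longest class, from 8652 bases, 35 of 46 ZNF genes were positive and 0 negative for each bait in the authors' deposited tables. That share of 76.1% stood against 52.6% of protein-coding genes for ALKBH5 and 46.8% for RBM33, per the authors' deposited tables. In the shortest class, up to 2919 bases, 3 of 24 ZNF genes were positive and 7 negative for ALKBH5, and 2 positive and 7 negative for RBM33, per the authors' deposited tables. The negative share there was 29.2% for each bait, against 53.6% and 52.3% of protein-coding genes for ALKBH5 and RBM33 in the authors' deposited tables. Of all negative ZNF genes, 12 of 18 for ALKBH5 and 10 of 12 for RBM33 were in the 2 shortest classes in the authors' deposited tables. Those shares of 66.7% and 83.3% stood beside 56.7% and 59% of negative protein-coding genes in the authors' deposited tables for ALKBH5 and RBM33.

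Within each length class the ZNF median was higher than that of protein-coding genes. From the shortest to the longest class it was -0.15, 0.21, 0.69, 0.57 and 1.06, against -0.81, -0.36, -0.07, 0.18 and 0.54, in the authors' deposited ALKBH5 table. The corresponding values were -0.16, 0.14, 0.43, 0.42 and 0.91, against -0.90, -0.45, -0.13, 0.19 and 0.54, in the authors' deposited RBM33 table. ZNF genes of chromosome 19 likewise stood above protein-coding genes in every class. Their medians were 0.25, 0.82, 0.79, 0.85 and 0.93 in the authors' deposited ALKBH5 table, and 0.31, 0.64, 0.54, 0.68 and 0.94 in the RBM33 one. These differences were not tested, because the genes share libraries and the tables hold no value per library.

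**Figure D3:**
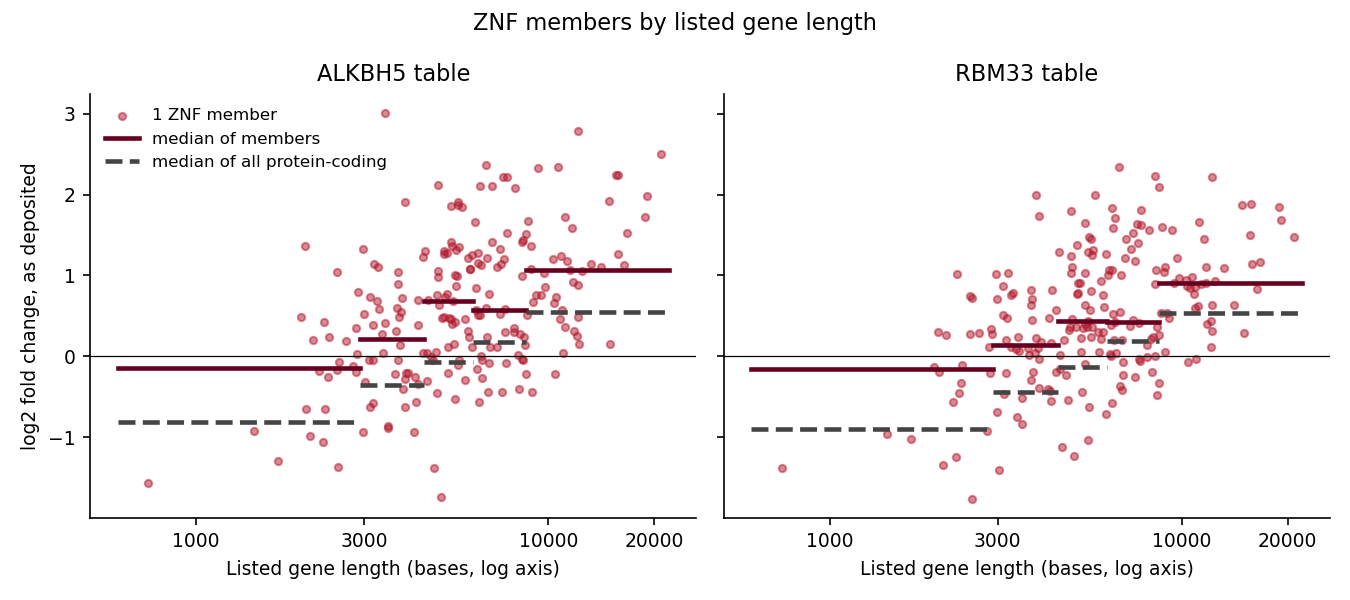
Log2 fold change as deposited (vertical axis) against listed gene length in bases (horizontal log axis) for the 218 ZNF genes (points), with the median of the ZNF genes (solid lines) and of all protein-coding genes (dashed lines) in each of the 5 length classes, the outermost lines clipped to the axis. The solid line stands above the dashed line in every class of both panels, for example 1.06 against 0.54 in the longest class for ALKBH5.

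A smaller share of genes was called at low abundance. Split after seeing the data at average log2 CPM of 3 and 5, the ZNF genes had 11 of 44, 56 of 110 and 36 of 64 positive calls from low to high in the authors' deposited ALKBH5 table. Those shares of 25%, 50.9% and 56.2% stood against 23.9%, 32.0% and 25.3% of protein-coding genes in the authors' deposited ALKBH5 table. In the lowest class the positive share of the ZNF genes was thus near that of protein-coding genes. Medians of the ZNF genes in these classes were 0.52, 0.49 and 0.55, against 0.30, -0.01 and -0.41 for protein-coding genes in the authors' deposited ALKBH5 table. For RBM33 the calls were 7 of 47, 48 of 111 and 30 of 60 (14.9%, 43.2% and 50%, against 17.0%, 24.7% and 21.4% of protein-coding genes), with medians of 0.27, 0.55 and 0.44, against 0.27, -0.05 and -0.49 for protein-coding genes in the authors' deposited table. In the lowest abundance class the RBM33 share of positive ZNF genes was thus below that of protein-coding genes, and their medians were alike. Negative shares of ZNF genes in that class were 2.27% for ALKBH5 and 2.13% for RBM33, per the authors' deposited tables. Those of protein-coding genes were 8.65% and 6.9%, per the authors' deposited tables.

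Position in the genome was described next, since ZNF genes arise in clusters. Runs of at least 4 of the 218 genes with neighbouring starts within 1 Mb gave 12 clusters holding 78 genes. In clusters 40 of 78 genes were positive and 5 negative for ALKBH5 (median 0.56), against 63 and 13 of 140 elsewhere (median 0.49) in the authors' deposited table. The RBM33 calls were 30 and 3 in clusters (median 0.46), against 55 and 9 elsewhere (median 0.41) in the authors' deposited table. The authors' deposited ALKBH5 background, taken over every listed gene, held 30.5% positive calls beside 29.1% negative ones. Its RBM33 counterpart, likewise authors' deposited, held 24% and 27%. How clustered genes differ from the rest was not tested.

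The cluster at the end of chromosome 12 (132918306 to 133214832) was positive for 6 of 7 genes and negative for 0 for each bait, with medians of 1.10 and 0.90 in the authors' deposited tables for ALKBH5 and RBM33. Beside ZNF26 and ZNF891 it holds ZNF10, whose KRAB domain is the repressor of many engineered DNA-binding tools, at 1.91 and 1.45, and ZNF84 at 0.76 and 0.90 in the authors' deposited tables. The uncalled genes were ZNF605 for ALKBH5 (0.46) and ZNF140 for RBM33 (0.36) in the authors' deposited tables. ZNF10 and ZNF268 both overlap AC026786.1 on their own strand, and ZNF605 overlaps CHFR on its own strand. Reads from these neighbours may be counted in the values. ZNF26, ZNF84, ZNF268, ZNF605 and ZNF891 are in the longest length class, with listed lengths of 9520 to 20862 bases. In that class 76.1% of the ZNF genes were positive for each bait in the authors' deposited tables. ZNF10 and ZNF140, at 5541 and 5374 bases, are in the middle class. Position and length were not separated. Beside the 6 of 7 here, the authors' deposited background of every listed gene was positive at 30.5% (ALKBH5) or 24% (RBM33). This is 1 of 12 clusters, and its share was not tested.

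A cluster on chromosome 7 (64307459 to 65401136) held genes of both signs. ZNF736 had 1.73 and 1.67, ZNF680 1.87 and 1.26 and ZNF107 1.10 and 1.33, all positive, in the authors' deposited tables for ALKBH5 and RBM33. ZNF92, in the same cluster, was negative at -0.87 (adjusted p = 0.00025) and -0.84 (adjusted p = 0.00228) in the authors' deposited tables. On chromosome 8 (144720907 to 144950888) 4 of 6 genes were positive for ALKBH5 and 3 for RBM33, with 0 negative, and ZNF251 had 1.31 and 1.37 in the authors' deposited tables. The largest cluster, on chromosome 16 (30378106 to 31917357), held 13 genes between -0.94 and 1.52 for ALKBH5 and between -1.41 and 2.10 for RBM33, per the authors' deposited tables. It had 5 positive and 1 negative call for ALKBH5, against 4 and 1 for RBM33, per the authors' deposited tables. For the clusters of chromosomes 7, 8 and 16 the background is again every listed gene. Its authors' deposited shares were 30.5% positive with 29.1% negative (ALKBH5), then 24% with 27% (RBM33).

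**Figure D4:**
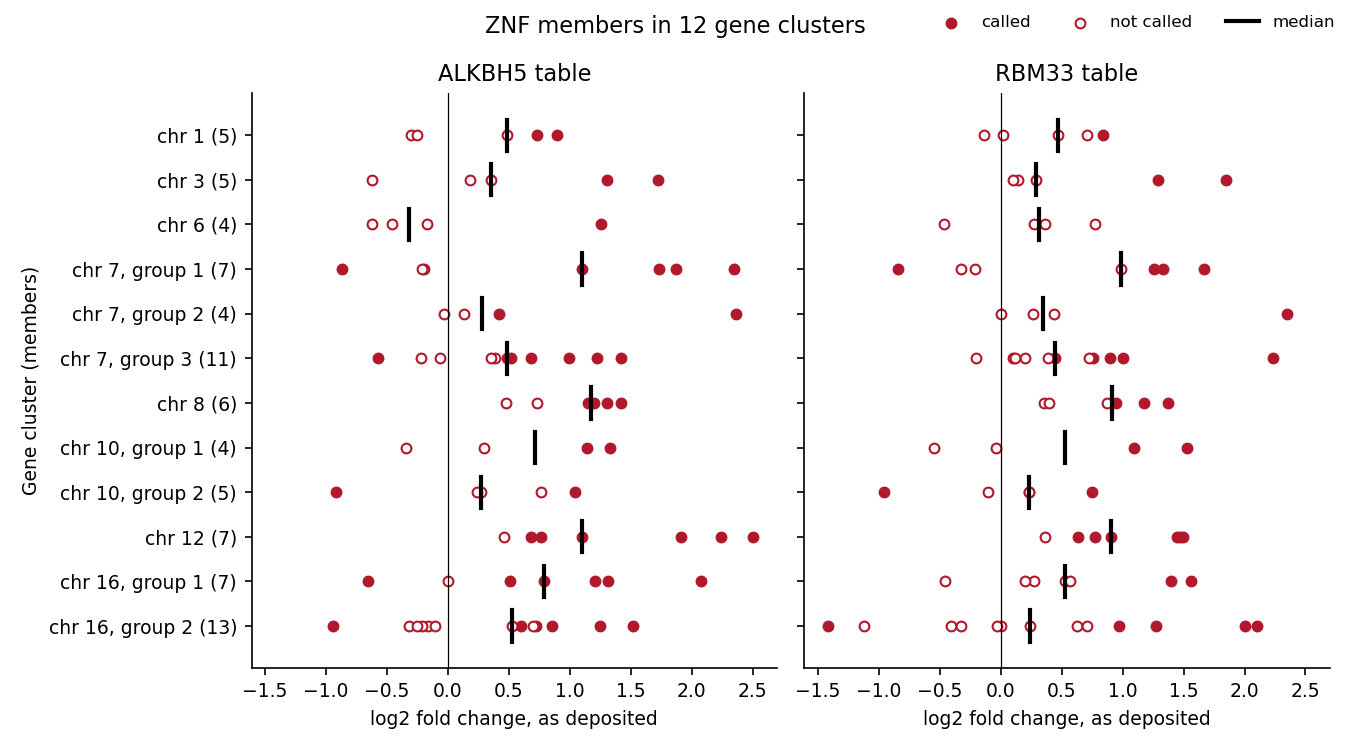
Log2 fold change as deposited (horizontal axis) of the 78 ZNF genes in 12 clusters, in rows by chromosome with the number of genes in brackets, with filled points for called genes, open points for uncalled genes and a bar for the cluster median. All 7 genes of the chromosome 12 cluster stand above 0 in both panels, whereas the first chromosome 7 cluster spans -0.87 to 2.35 for ALKBH5.

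Some ZNF neighbours start from nearly the same place on opposite strands. The pairs whose start regions are shown were picked after their values were seen, and both genes of each were positive. Closer pairs whose genes were not both called for either bait, ZNF514 with ZNF2 and ZNF425 with ZNF398, are given below without their windows. ZNF891 and ZNF10 on chromosome 12 have starts 102 bases apart in the tables, and ZNF668 and ZNF646 on chromosome 16 have starts 182 bases apart. RefSeq's promoter windows (GRCh38.p14, 250 bases before to 50 after the start) overlap by 148 bases in the first pair and by 281 in the second. In the first pair RefSeq's starts lie farther apart than those in the tables. The windows of the plus-strand genes, chr12:133130377-133130676 and chr16:31074172-31074471, are given 5′ to 3′ on the plus strand, with GC boxes (GGGCGG or its reverse complement CCGCCC) in capitals.
ZNF10: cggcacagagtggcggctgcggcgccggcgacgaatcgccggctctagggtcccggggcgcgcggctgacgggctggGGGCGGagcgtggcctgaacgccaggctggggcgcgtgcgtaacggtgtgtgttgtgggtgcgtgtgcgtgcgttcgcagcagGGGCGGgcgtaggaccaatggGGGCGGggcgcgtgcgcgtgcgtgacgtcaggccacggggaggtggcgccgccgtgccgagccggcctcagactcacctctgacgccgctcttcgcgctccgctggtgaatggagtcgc
ZNF646: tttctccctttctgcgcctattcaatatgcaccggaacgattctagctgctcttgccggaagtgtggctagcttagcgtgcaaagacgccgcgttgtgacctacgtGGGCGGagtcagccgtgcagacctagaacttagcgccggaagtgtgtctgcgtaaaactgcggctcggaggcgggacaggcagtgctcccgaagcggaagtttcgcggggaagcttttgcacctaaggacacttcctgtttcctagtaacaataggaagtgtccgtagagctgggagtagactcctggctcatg

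The ZNF10 window holds 3 GC boxes, of which only the leftmost lies in the part shared with the ZNF891 window. The ZNF646 window holds 1, in the part shared with the ZNF668 window. At least 1 GC box, on either strand, was found in the windows of 115 of the 180 ZNF genes with a RefSeq window (63.9%), against 58.5% of 15842 windows of protein-coding genes and 44.6% of all 27305 RefSeq windows. Among ZNF genes positive for at least 1 bait, 56 of 90 windows had a GC box (62.2%). Among those negative for at least 1 bait, 16 of 19 had it (84.2%), and the difference was not tested. A match is a description of the letters only. Both genes of the chromosome 12 pair were positive, at 2.24 for ZNF891 and 1.91 for ZNF10 for ALKBH5 and at 1.49 and 1.45 for RBM33, per the authors' deposited tables. ZNF10 overlaps AC026786.1 on its own strand, whose reads may be counted in its values. Both of the chromosome 16 pair were positive as well, ZNF668 at 0.72 (adjusted p = 0.0363) and ZNF646 at 1.52 for ALKBH5, and at 2.00 (adjusted p = 0.00222) and 2.10 for RBM33, per the authors' deposited tables.

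ZNF140 and ZNF891 overlap by 728 bases on opposite strands and were both positive for ALKBH5, at 0.69 and 2.24 in the authors' deposited table. In each of the other close pairs 1 gene or neither was called for a bait. ZNF514 and ZNF2 on chromosome 2 start 19 bases apart in the tables, yet ZNF514 had 2.33 and ZNF2 -0.21 (adjusted p = 0.573) in the authors' deposited ALKBH5 table. For RBM33 they stood at 1.56 and 0.18 (adjusted p = 0.668) in the authors' deposited table. ZNF789 overlaps ZNF394 on the opposite strand by 29774 bases, and ZNF394 had 0.13 (adjusted p = 0.58) and 0.27 (adjusted p = 0.337) beside the 2.36 and 2.35 of ZNF789 in the authors' deposited tables for ALKBH5 and RBM33. Neither ZNF2 nor ZNF394 was called. ZNF425 and ZNF398, with starts 92 bases apart on opposite strands, had -0.22 (adjusted p = 0.595) and 0.51 (adjusted p = 0.00533) in the authors' deposited ALKBH5 table, and 0.10 and 0.39 (adjusted p = 0.802 and 0.0573) in the RBM33 one. ZNF619 and ZNF620 overlap on the same strand with starts 18 bases apart. They had 0.40 and 0.14 for ALKBH5 and 0.63 and -0.20 for RBM33, none of them called, in the authors' deposited tables. ZNF214 and ZNF215 overlap on opposite strands by 3920 bases, and ZNF214 had 1.27 (adjusted p = 0.0125) and ZNF215 0.24 (adjusted p = 0.229) in the authors' deposited ALKBH5 table. Neither was called for RBM33, at 0.90 and 0.30 in the authors' deposited table. Reads of overlapping neighbours may be mixed, because no source used here gives the strand setting of the counting.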

How the data were processed

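The submitters' processing notes name cutadapt 1.18, HISAT2 2.1.0, featureCounts, Subread 1.6.4, edgeR 3.24.3 and build hg38, without giving the annotation release, low-count filter or strand setting. For each gene the authors deposited a log2 ratio and a mean log2 CPM, per the file headers. Its F value, a score, came with a p-value and an adjusted p-value, also deposited by the authors. Recomputing the Benjamini-Hochberg adjustment over 16324 genes gave the deposited values. Depth per library is unknown, and the planned count model could not be run without values per library.

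Genes were called at an adjusted p under 0.05 with the deposited sign. Named genes are the 10 most positive and 8 most negative called genes per table, the fixed role list of 40 genes, members called with opposite signs and up to 4 genes per cluster. Genes of close pairs and of families were named after their values were seen. Members and lists were chosen with earlier results of these data known. The counting code was tested on simulated data. Protein sequences were not used here, so classes by KRAB, SCAN and finger motifs were not computed. Alternatives were stricter calls, abundance, adjustment over protein-coding genes, overlap, membership and length. Python 3.11.15, pandas 2.3.3 and SciPy 1.17.1 were used.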

Additional observations from a re-analysis of the deposited data

How the results depend on the processing

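All counts here come from the authors' deposited tables. At an adjusted p under 0.01, 88 members were positive and 13 negative in the ALKBH5 table, and 63 and 9 in the RBM33 table, within 1.5 times the reported counts. With at least 1 log2 unit, negative members numbered 6 for ALKBH5 and 6 for RBM33. For these stricter calls, and for the abundance and overlap settings below, shares of other genes were not counted. They show how the member counts move, not how members stand against the background. The next settings count other numbers of genes than the 218. Members at or above the median abundance of all genes had 61 positive for ALKBH5 and 54 for RBM33, of 116 each. Members that overlap no other listed gene, 136 in number, had 62 positive and 11 negative values for ALKBH5, against 57 and 7 for RBM33, with medians of 0.52 and 0.41. ZNF genes of every chromosome, 413 in number, had 210 positive and 29 negative calls for ALKBH5, with 159 positive for RBM33. The median of members turned negative in the shortest of 5 length classes, at -0.15 for ALKBH5 and -0.16 for RBM33, and was 0.21 and 0.14 in the next class and 1.06 and 0.91 in the longest. The cause was not tested. Adjusted over protein-coding genes alone, the counts were 103 and 18 for ALKBH5 and 86 and 13 for RBM33. Of 60 genes named by size or role, 6 lost their call at 0.01 in each table. No paired analysis was possible because the tables hold no value per library, and for the same reason no replicate could be left out. The classes by protein motif, with their looser spacing, were not run.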

Other observations

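ZNF genes that share a number and differ by a letter form 6 sets, described after seeing the data. ZNF354A and ZNF354B, neighbours on chromosome 5, were called with opposite signs for each bait: -0.94 (adjusted p = 0.000313) and 1.04 (adjusted p = 0.0013) for ALKBH5, and -0.69 (adjusted p = 0.0175) and 0.82 (adjusted p = 0.0219) for RBM33, in the authors' deposited tables. ZNF354A is overlapped on its own strand by AC113348.2, whose reads may be counted in its values, and ZNF354B by no listed gene. ZNF512B was positive at 1.08 and 0.76, whereas ZNF512 had 0.04 and -0.19 and was not called, in the authors' deposited tables for ALKBH5 and RBM33. ZNF518A (1.24 and 0.86) and ZNF518B (0.57 and 0.60) were positive for both baits in the authors' deposited tables. ZNF33A and ZNF33B, near-identical copies on chromosome 10 between which reads may be split, had 0.30 and 0.27 for ALKBH5 and -0.03 and 0.23 for RBM33, none of them called, in the authors' deposited tables. Of ZNF385A, ZNF385B and ZNF385C, none was called, and ZNF280D at 0.88 (adjusted p = 0.00217) for ALKBH5 was the only call among ZNF280A, ZNF280B and ZNF280D in the authors' deposited tables.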
